A study of Mus musculus with 3 samples.

Results

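The mitosis genes described here are 47 genes whose products drive or carry out mitosis, given as a list of symbols and read as raw UMI counts (unique molecules per gene and cell barcode). All 47 were found among the 32287 features of the matrix. The list was not chosen by level, but it was drawn up with earlier results of these data in view. The cells are mouse PC cells, from a single culture. They come from esophageal organoids of mice whose Trp53 alleles are both floxed. Ad-Cre-EGFP, an adenovirus carrying Cre recombinase and a green fluorescent protein, removed Trp53, the gene of the tumour suppressor p53, and CRISPR/Cas9 then knocked out Cdkn2a, the locus of the p16 and p19Arf proteins that restrain the cell cycle. The cells were dissociated, grown in serum-containing DMEM at first with the ROCK inhibitor Y-27632, made to express Cas9 throughout, transfected with a genetic barcode library, passaged and sorted as live RFP-positive cells. By the labels all cells share these engineered losses, no unmodified control was analysed here, and neither was the related line PCN. The labels do not say whether the culture is 1 clone, or how many mice gave the organoids. With 1 sample there is no test between conditions and no p-value, and every interval below is an exact 95% interval that covers counting error only.

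Filters on genes, UMIs and mitochondrial share kept 14925 of 18116 barcodes, with a median of 2955 UMIs per cell (1000 to 23453). Trp53 had 46.8 CPM and Cdkn2a 639.6 CPM over all kept cells, which does not check the engineered losses, since 3' UMIs can come from outside the altered part. Scrublet, a doublet caller, marked 1 cell of 14925, or 0.0067%, which is not a working call, so doublets were kept. The labels name the tissue as esophageal cancer, and epithelial markers were present. Over all kept cells they included Krt14 at 1145 CPM, Epcam at 1086 CPM, Krt5 at 628.1 CPM, Cldn4 at 449.8 CPM and Trp63 at 141.1 CPM. CPM is UMIs of a gene per 1000000 UMIs of the same cells. UMIs mark the 3' ends of transcripts, so levels were not divided by gene length. A list of 17 mesenchymal markers summed to 740.0 CPM, most of it from Sparc at 360.6 CPM and Vim at 157.4 CPM. Grem1 and Col1a1 followed at 53.8 and 45.1 CPM. Fibroblast markers were low or absent, with Dcn at 3.26, Pdgfrb at 0.418 and Col1a2 at 0.132 CPM, and Lum and Thy1 at 0. The mesenchymal gate used below counts this list, and the part of each gene in it was not computed. Immune and endothelial lists of 8 genes each summed to 8.52 and 7.83 CPM. In the immune list Cd68 had 339 UMIs, Csf1r 31, Ptprc 1 and Tyrobp 0. In the endothelial list Egfl7 had 281 UMIs and Pecam1 56, and Cdh5, Cldn5 and Emcn had 0.

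A cell enters mitosis when cyclin B and the kinase Cdk1, released from inhibitory phosphorylation by Cdc25 phosphatases, become active. Condensins and topoisomerase II compact the chromosomes, kinetochores attach them to a spindle built by kinesins and microtubule binders, and a checkpoint delays anaphase until each is attached. The anaphase-promoting complex with Cdc20 then marks securin and the cyclins for destruction, and a central spindle and contractile ring divide the cell. Transcripts of these genes are known to build up from late S phase, with some peaking in G2 and others in mitosis. In stratified epithelium such as the esophagus, division is normally a property of the basal layer.

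Together the 47 genes had 104893 UMIs, 2308 CPM (2294 to 2322) or 0.231% of all UMIs in kept cells. Their levels spanned from 3.45 to 204.7 CPM with a median of 24.98 CPM, and 40 of the 47 reached 10 CPM. The 5 highest were Hmgb2, a chromatin-bending protein, at 205 CPM (201 to 209), Ube2c, the ubiquitin-conjugating enzyme of the anaphase-promoting complex, at 202 CPM (198 to 207), the Cdk-binding proteins Cks2 at 192 CPM (188 to 196) and Cks1b at 160.5 CPM (157 to 164), and Pttg1, which is securin, at 134 CPM (131 to 138). The intervals of Hmgb2 and Ube2c overlapped, while those of the others in this group did not overlap each other. The 5 lowest were Gtse1, a microtubule-binding protein, at 3.45 CPM (2.94 to 4.04), the phosphatase Cdc25c at 4.14 CPM (3.57 to 4.77), the late-mitotic kinesin Kif20a at 8.65 CPM (7.81 to 9.55), the checkpoint kinase Ttk at 8.71 CPM (7.88 to 9.62) and the condensin subunit Ncapd2 at 8.87 CPM (8.02 to 9.78). Nuf2 and Kif2c, at 9.09 and 9.62 CPM, were the other members under 10 CPM.

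To ask where in the culture these transcripts sat, cells were sorted by genes that are not members. Each of 13281 cells with at least 1500 UMIs was thinned at random to 1500, and 1644 shallower cells were left out. Cells with at least 3 thinned UMIs of 41 other mitotic genes form the division gate, and cells with 0 are called other cells. The gate is a range of UMI counts and not an observed phase. It held 1320 cells, or 9.94% (9.44 to 10.5%), against 9932 other cells, while 2029 cells with 1 or 2 gate UMIs lay between and were left out of the comparison. Near the lower edge, 413 cells had 3 gate UMIs and 539 had 2.

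All members but Pttg1 were higher in the division gate. Members made up 1.08% of UMIs in division-gate cells and 0.0732% in other cells. After thinning, a division-gate cell had a median of 15 member UMIs (5th to 95th percentile 5 to 30) and another cell had 1 (0 to 3). Division-gate cells held 52.3% of all member UMIs of the thinned cells. Of the 40 members that reached 10 CPM, 39 were at least 2-fold higher in division-gate cells with an interval that excluded 1, against 4.17% of all 8462 genes that reached 10 CPM. The minimum was taken over all kept cells, so a gene low in other cells could reach it through the division gate. Aurkb, for example, had 12.9 CPM over all kept cells and 1.71 CPM in other cells. The part of this in the count was not tested. Without that minimum, 46 of all 47 members met the same criterion, and the share of all genes without it was not computed. The median ratio was 33.7 over the 40 members and 0.986 over the 8462 genes. Of the 40 members, 0 were 2-fold lower in division-gate cells, against 2.3% of all genes. The median depth was 3651 UMIs in division-gate and 3061 in other cells, the median mitochondrial share 2.26% and 2.81%, and the median doublet score 0.0558 and 0.0717. The mesenchymal marker list stood at 305.9 CPM in division-gate and 872.1 CPM in other cells, and the epithelial list at 5498 and 5288 CPM, and their part in the result was not tested. Free RNA reaching other cells was not measured, and its part in the lower levels was not tested.

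**Figure D1:**
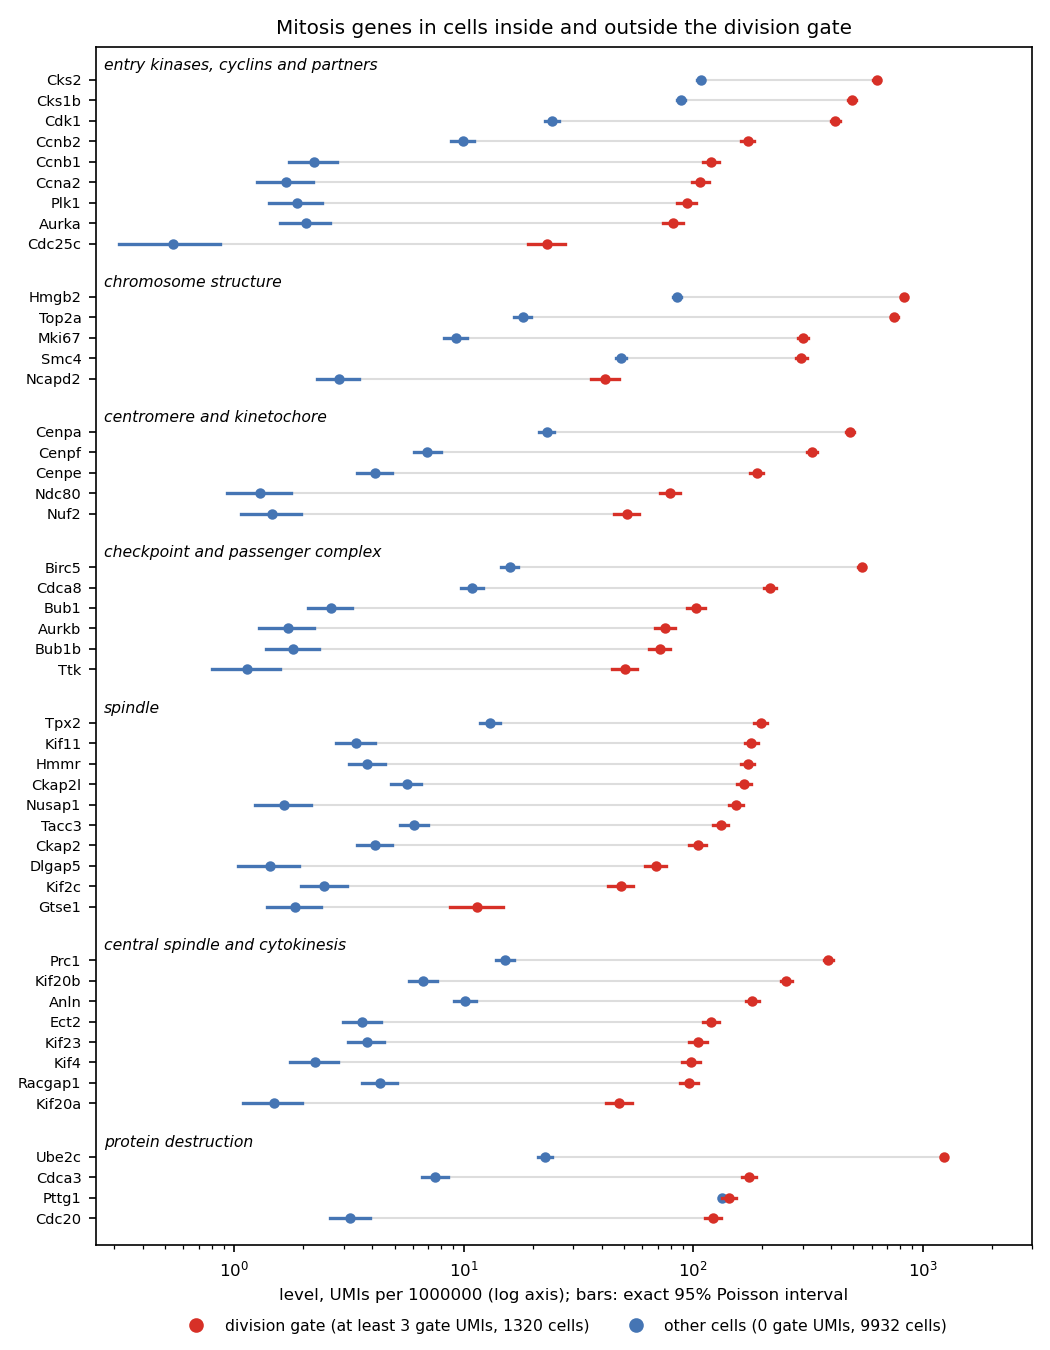
Level of each of the 47 members in UMIs per 1000000 (log axis) in 1320 division-gate cells (red) and 9932 other cells (blue), grouped by role, with exact 95% Poisson intervals that cover counting error only. The intervals of the 2 sets overlap for none of the members but Pttg1, whose points lie at 143.6 and 133.7 CPM.

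Among the 9 entry kinases, cyclins and their partners, the ratio ran from 5.57 to 63.8. Ccna2, the cyclin of S phase and G2, had 107 CPM in division-gate cells and 1.68 CPM in other cells, a ratio of 63.8 (48.1 to 86.4). Ccnb1, the main mitotic cyclin, had 120.3 CPM in division-gate cells and 2.22 CPM in other cells, a ratio of 54.1 (42.2 to 70.4). Both cyclins were low outside the gate. Cdk1, their kinase partner, had 417 CPM in division-gate cells and 24.4 CPM in other cells, a ratio of 17.1 (15.7 to 18.6). Plk1 and Aurka, kinases of mitotic entry and centrosome maturation, had ratios of 50.1 (38.1 to 66.8) and 39.7 (30.5 to 52.4). Ccnb2 had a ratio of 17.4 (15.3 to 19.9). The phosphatase Cdc25c, at 23.1 CPM in the gate, had a ratio of 42.9 (25.6 to 76.1). Cks1b and Cks2 differed least in this group. Cks1b had 494 CPM in division-gate cells and 88.6 CPM in other cells, a ratio of 5.57 (5.27 to 5.88), and Cks2 had 631 CPM in division-gate cells and 108 CPM in other cells, a ratio of 5.84 (5.56 to 6.13). These small Cdk-binding subunits are also known to act in G1 exit, Cks1b as a cofactor in p27 breakdown.

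In the chromosome structure group, Top2a, the topoisomerase that untangles sister DNA, had 754 CPM in division-gate cells and 18.1 CPM in other cells, a ratio of 41.6 (38.1 to 45.5). Mki67, the Ki-67 protein that coats mitotic chromosomes and is a common proliferation marker, had 300.3 CPM in division-gate cells and 9.24 CPM in other cells, a ratio of 32.5 (28.7 to 37.0). Both were well separated between the cell sets. Smc4, a core condensin subunit, had 297 CPM in division-gate cells and 48.5 CPM in other cells, a ratio of 6.12 (5.69 to 6.58), and the other condensin subunit, Ncapd2, had a ratio of 14.5 (11.3 to 18.8). Hmgb2 had a ratio of 9.72 (9.25 to 10.2).

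The 5 centromere and kinetochore members ran from 20.9 to 61.2. Cenpa, the histone H3 variant that marks centromeres, had 482 CPM in division-gate cells and 23.0 CPM in other cells, a ratio of 20.9 (19.2 to 22.8). Ndc80, the kinetochore's microtubule anchor, had 79.7 CPM in division-gate cells and 1.30 CPM in other cells, a ratio of 61.2 (44.3 to 86.6), and its partner Nuf2 a ratio of 35.1 (25.6 to 49.2). Ndc80 and Nuf2 act in 1 complex, and their intervals overlapped. Cenpf and Cenpe, large coiled-coil proteins of the outer kinetochore, had ratios of 47.5 (41.2 to 54.9) and 46.3 (38.5 to 56.1). The 6 checkpoint and passenger complex members fell between 19.9 and 44.0. The checkpoint kinases Bub1 and Ttk had ratios of 39.1 and 44.0, and Bub1b, which encodes BubR1, 39.6. In the passenger complex, the kinase Aurkb had a ratio of 44.0, survivin (Birc5) 34.2 and borealin (Cdca8) 19.9.

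The 10 spindle members ran from 6.23 to 93.3. Nusap1, which bundles spindle microtubules, had 154 CPM in division-gate cells and 1.65 CPM in other cells, and its ratio of 93.3 (70.4 to 126) was the highest of all 47. Nusap1 overlaps Oip5, a gene of the gate list at 2.60 CPM, on the opposite strand. The counting strand is not given in the sources used here, and the part of that overlap was not tested. In all, 11 members overlap a gene on the opposite strand in GENCODE M21, among them Kif4 with Pdzd11 (102.4 CPM), Ccna2 with Exosc9 (31.0 CPM) and Cdc20 with Elovl1 (23.6 CPM). Gtse1 was at the other end of the group, with 11.5 CPM in division-gate cells and 1.84 CPM in other cells and a ratio of 6.23 (4.24 to 9.14). Between them lay the kinesin Kif11 at 52.8, the spindle proteins Dlgap5 at 48.2 and Hmmr at 45.4, the microtubule-associated Ckap2l and Ckap2 at 29.4 and 25.4, Tacc3 at 21.7, the microtubule-depolymerising kinesin Kif2c at 19.6 and the Aurora A activator Tpx2 at 15.1. The 8 central spindle and cytokinesis members ran from 17.8 to 43.5. Kif4, Kif20b, Kif20a and Kif23, kinesins of the midzone, stood at 43.5, 38.2, 32.0 and 27.9. Ect2, Racgap1 and Anln, which position and scaffold the contractile ring, stood at 33.2, 22.2 and 17.8, and the midzone bundler Prc1 at 25.7.

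The 4 members of the protein destruction machinery were split. Ube2c had 1235 CPM in division-gate cells and 22.6 CPM in other cells, a ratio of 54.6 (50.5 to 59.1) and the highest level of any member in the gate. Cdc20, the activator of the anaphase-promoting complex, had 123 CPM in division-gate cells and 3.21 CPM in other cells, a ratio of 38.3 (31.0 to 47.7), and Cdca3, a substrate and cofactor in mitotic entry, a ratio of 23.3 (20.2 to 27.1). Pttg1, whose protein is a destruction target that holds separase inactive, was the only one of the 47 that did not meet the criterion. It had 144 CPM in division-gate cells and 134 CPM in other cells, a ratio of 1.07 (0.991 to 1.16), and 12.1% of its UMIs in thinned cells came from the gate, against a median of 61.5% over the 47 members. Its ratio stayed between 1.04 and 1.13 under the other settings tried. In other cells, Pttg1, Cks2, Cks1b, Hmgb2 and Smc4 made up 63.4% of all member UMIs, so the remaining 42 members were low there.

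Promoters were examined because most members moved together. RefSeq promoter entries on GRCm38.p6 were matched for 40 of the 47 members, 43 entries in all, and read from 250 bases before to 30 bases after the start. A pair of short motifs known from cell cycle promoters were searched on both strands. The first is the cell cycle homology region core, TTTGAA or TTCGAA, which the MuvB complex binds in DREAM and in the activating form with B-Myb and Foxm1. The other is the CCAAT box of NF-Y. The first was in 29 of 43 member entries (67.4%) and in 18.4% of all 32841 entries of the same length. Within 50 bases before to 30 after the start it was in 23 of 43 (53.5%) against 4.33%. CCAAT was in 34 of 43 (79.1%) against 36.1%, and at least 2 CCAAT matches, overlapping ones included, were in 55.8% against 11.1%. A match is a description of letters and not a binding site, and some members have more than 1 entry.

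For 5 of the 43 member entries, that of Pttg1 among them, the window lies wholly inside the gene as annotated in GENCODE M21, so its letters do not describe the region before that start. The following 5 promoters show the range: Cdk1 and Ube2c carry both motifs and were high in the gate, Cdc20 and Plk1 come from the late end of the order described next, and Ndc80 comes from its early end. Capitals mark every match of either motif, on either strand. They lie at chr10:69352883-69353162, minus strand (Cdk1), chr2:164769679-164769958, plus strand (Ube2c), chr4:118437314-118437593, minus strand (Cdc20), chr7:122159185-122159464, plus strand (Plk1) and chr17:71526828-71527107, minus strand (Ndc80), each written 5′ to 3′ on the strand of its gene.
Cdk1: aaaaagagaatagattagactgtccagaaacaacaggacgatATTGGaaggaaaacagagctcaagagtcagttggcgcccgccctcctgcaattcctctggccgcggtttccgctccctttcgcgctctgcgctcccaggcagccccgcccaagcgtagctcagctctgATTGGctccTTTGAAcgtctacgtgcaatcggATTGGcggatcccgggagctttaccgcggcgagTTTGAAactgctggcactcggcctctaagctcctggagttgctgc
Ube2c: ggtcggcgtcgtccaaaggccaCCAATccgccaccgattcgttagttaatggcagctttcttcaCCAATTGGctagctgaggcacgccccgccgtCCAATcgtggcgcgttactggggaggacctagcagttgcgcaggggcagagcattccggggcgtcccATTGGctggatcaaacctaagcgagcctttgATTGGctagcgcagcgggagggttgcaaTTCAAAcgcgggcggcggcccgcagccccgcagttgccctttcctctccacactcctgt
Cdc20: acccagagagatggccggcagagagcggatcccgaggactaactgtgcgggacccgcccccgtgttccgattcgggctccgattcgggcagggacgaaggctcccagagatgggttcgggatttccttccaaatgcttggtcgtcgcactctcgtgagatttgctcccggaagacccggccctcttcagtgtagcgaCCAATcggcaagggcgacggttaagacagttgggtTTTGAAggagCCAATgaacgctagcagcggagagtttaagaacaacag
Plk1: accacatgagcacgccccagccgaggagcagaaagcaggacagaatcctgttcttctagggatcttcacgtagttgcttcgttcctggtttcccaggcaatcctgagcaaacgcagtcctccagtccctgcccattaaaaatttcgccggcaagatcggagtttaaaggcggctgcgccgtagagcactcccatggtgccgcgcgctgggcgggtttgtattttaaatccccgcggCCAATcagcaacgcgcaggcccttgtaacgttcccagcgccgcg
Ndc80: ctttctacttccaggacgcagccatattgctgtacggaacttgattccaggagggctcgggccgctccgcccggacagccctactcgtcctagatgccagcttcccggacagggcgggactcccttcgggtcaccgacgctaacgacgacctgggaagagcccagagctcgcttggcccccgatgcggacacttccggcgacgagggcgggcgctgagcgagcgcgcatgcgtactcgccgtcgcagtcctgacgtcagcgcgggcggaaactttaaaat
Cdk1 had 2 TTTGAA and 3 CCAAT matches, Ube2c 1 and 6, of which a pair overlap, and Cdc20 1 and 2. Plk1 had 1 CCAAT match and no TTTGAA or TTCGAA. Ndc80 had none of these letters in this window, with a ratio between division-gate and other cells of 61.2.

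The order of the members within division was read from DNA replication transcripts, again from genes that are not members. A list of 32 replication genes, such as the MCM helicase subunits and Pcna, split the division gate into 642 replication-high cells (at least 3 thinned UMIs) and 451 replication-low cells (at most 1), leaving 227 between. Replication transcripts fall after S phase, so the axis was used as a scale from cells nearer S phase to cells farther from it, which is not an observed time. From textbook roles, 8 members were placed as early G2 (Ccna2, Cdk1, Top2a, Smc4, Ncapd2, Hmgb2, Kif11 and Tacc3), 12 as late mitotic (Ccnb1, Ccnb2, Cdc20, Plk1, Aurka, Cenpa, Cenpe, Ube2c, Kif20a, Hmmr, Pttg1 and Dlgap5) and 27 as neither. The late list does not hold every member that acts late, nor only such members. Ccnb1, Ccnb2, Plk1 and Aurka also belong to the entry group. The central spindle and cytokinesis members apart from Kif20a are in neither list.

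The late mitotic list was lower in replication-high cells and the early G2 list was level. The late list summed to 2216 CPM (2156 to 2278) in replication-high cells and 3600 CPM (3513 to 3689) in replication-low cells, a ratio of 0.616 (0.593 to 0.639). The early list summed to 2748 CPM (2680 to 2816) and 2748 CPM (2671 to 2825), a ratio of 1.00 (0.963 to 1.04). All 12 late members had an interval below 1, with a median ratio of 0.639 and a range from 0.488 to 0.741. Of the 8 early members 2 had an interval below 1 and 1 above, with a median ratio of 0.975, and the lowest was Ccna2. Over the 40 members at 10 CPM or more, 25 had an interval below 1 and 2 above, against 5.99% and 8.34% of all 8462 genes tested. The median ratio was 0.785 over these members and 1.03 over all genes tested.

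In steps along the axis, the late list was lowest where replication UMIs were highest, and the early list showed no such slope. With 0, 1, 2, 3 to 4, 5 to 7 and 8 or more replication UMIs (175, 276, 227, 342, 213 and 87 cells), the late list stood at 3696, 3539, 3424, 2658, 1785, 1335 CPM. Over the same steps the early list stood at 2576, 2857, 2792, 2858, 2592, 2646 CPM. The late level in the last step was thus well below that in the first, with intervals of 1205 to 1476 and 3555 to 3842 CPM. Replication-low cells were also deeper, with a median of 3885 UMIs against 3404, and carried more mesenchymal marker UMIs, 411.0 against 233.6 CPM, while the epithelial list differed little at 5569 and 5456 CPM. The part of depth and of these markers in the order was not tested. Under the other settings the late ratio ran from 0.460 to 0.669 and the early ratio from 0.892 to 1.09.

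**Figure D2:**
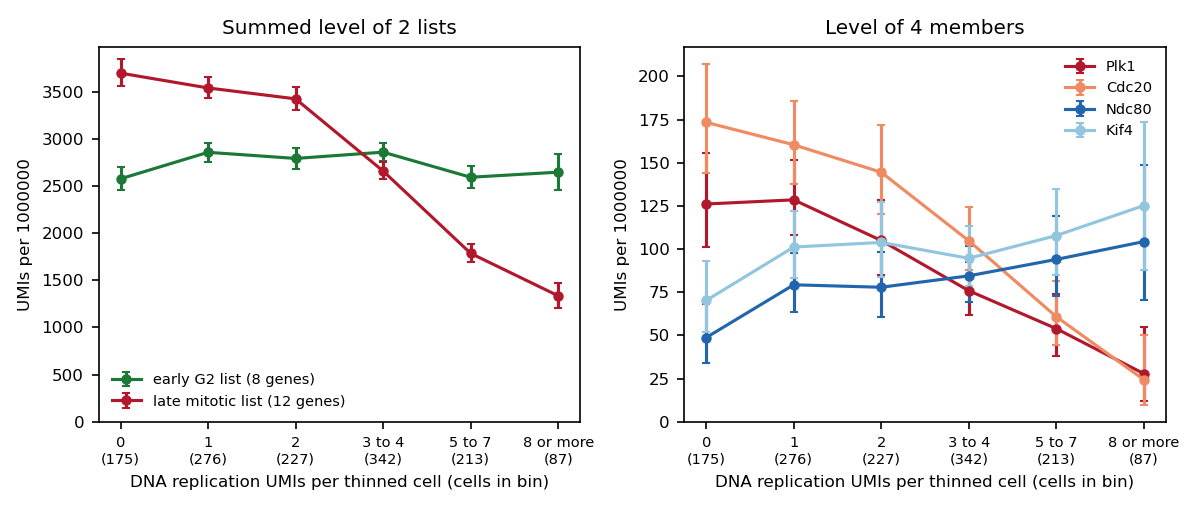
Levels in UMIs per 1000000 in division-gate cells binned by their thinned DNA replication UMIs, with exact 95% Poisson intervals and the number of cells under each bin; left, the summed early G2 and late mitotic lists, and right, 4 members. The late list goes from 3696 to 1335 CPM while the early list stays between 2576 and 2858 CPM; Plk1 and Cdc20 are lower, and Ndc80 and Kif4 higher, in the last bin than in the first.

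By member, the 5 lowest ratios were those of Cdc20, Plk1, Cenpa, Cenpf and Cdc25c. Cdc20 had 80.8 CPM in replication-high and 165 CPM in replication-low cells, a ratio of 0.488 (0.404 to 0.589). Plk1 had 62.9 CPM in replication-high and 128 CPM in replication-low cells, a ratio of 0.493 (0.397 to 0.610), and Cenpa had 324 CPM in replication-high and 634 CPM in replication-low cells, a ratio of 0.512 (0.466 to 0.562). For these 3 members the replication-high side was the lower one and the intervals were far from 1. Cenpf had a ratio of 0.548 (0.491 to 0.611) and Cdc25c 0.565 (0.357 to 0.884), although neither was on the late list. Ccnb1 and Aurka followed, at 0.591 (0.491 to 0.711) and 0.605 (0.482 to 0.760).

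At the other end stood Ndc80, Ncapd2, Nuf2, Kif4 and Top2a. Ndc80 had 90.0 CPM in replication-high and 67.4 CPM in replication-low cells, a ratio of 1.33 (1.06 to 1.68), and its partner Nuf2 a ratio of 1.17 (0.880 to 1.57). Ncapd2 had a ratio of 1.21 (0.878 to 1.66) and Kif4, a kinesin that also works with condensin on chromosome arms, 1.15 (0.938 to 1.42). Of these 5, the intervals of Ndc80 and Top2a excluded 1. Top2a had 795 CPM in replication-high and 698 CPM in replication-low cells, a ratio of 1.14 (1.06 to 1.22), but its direction turned under 2 settings, with 0.898 when the 10% of cells with the highest Scrublet scores were left out and 0.927 when cells were thinned to 1000 UMIs. Mki67 had a ratio of 1.08 (0.967 to 1.21) and Cdk1 of 0.962 (0.872 to 1.06), both with 1 inside the interval. Among the cyclins and their partners, Ccna2 at 0.691 (0.571 to 0.836), Cks2 at 0.679 (0.627 to 0.735) and Cks1b at 0.910 (0.832 to 0.995) all lay below 1. Ccna2, placed early by role, thus had a ratio within the range of the late members. Its first and last steps along the axis did not differ in this way. It had 116 CPM (92.2 to 144) with 0 replication UMIs and 108 CPM (73.2 to 153) with 8 or more.

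By role, 8 of the 9 entry kinases, cyclins and partners and all 4 destruction members had intervals below 1, with group medians of 0.657 and 0.691, against 5.99% of all genes below 1 and 8.34% above. The central spindle and cytokinesis group had 6 of 8 below 1 and a median of 0.773, and the spindle group 5 of 10 and 0.772. The checkpoint and passenger complex group had 1 of 6 below 1 and a median of 0.936, and the chromosome structure group 1 of 5 below (Smc4), 1 above (Top2a, with the reversals given above) and a median of 1.08. The centromere and kinetochore group was split, with Cenpa, Cenpf and Cenpe below 1 and Ndc80 above.

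**Figure D3:**
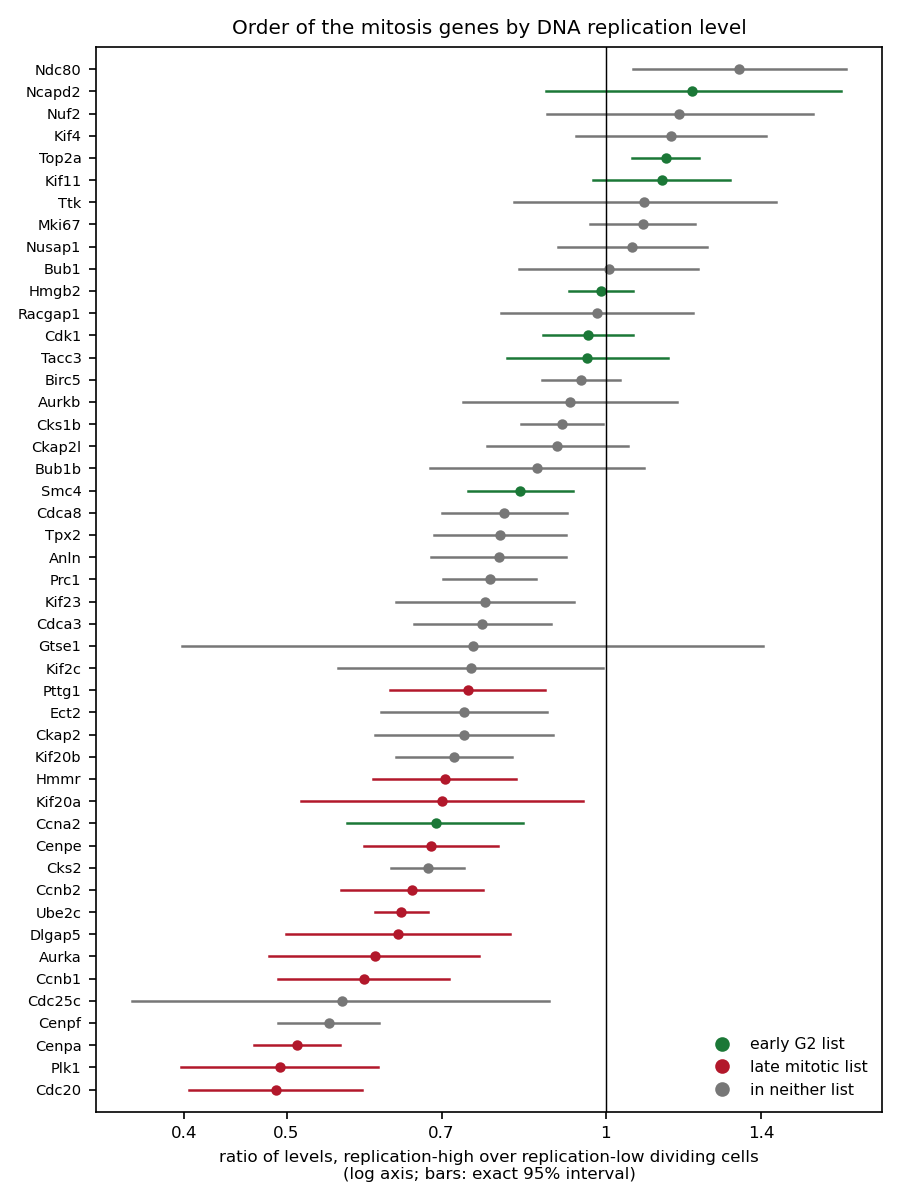
Ratio of the level in replication-high over replication-low division-gate cells for each member (log axis), sorted, with exact 95% intervals that cover counting error only and colours for the early G2 list, the late mitotic list and the members in neither. The 12 late members lie between 0.488 and 0.741, and the early members lie above them apart from Ccna2 at 0.691.

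The 27 members in neither list were then placed by a scale that used none of them. Division-gate cells with at least 4 thinned UMIs of the early and late lists together were split by the late share of those UMIs into 387 late-rich cells (at least 60%) and 378 early-rich cells (at most 40%). Of the 22 unplaced members that reached 10 CPM, 16 had an interval above 1 for late-rich over early-rich cells and 0 below, against 5.2% and 5.72% of 8444 genes outside both lists. The median ratio was 1.348 for these members and 0.996 for all genes. Bub1b at 1.82, Cdc25c at 1.74, Tpx2 at 1.70 and Cenpf at 1.68 were the highest of the 27. Kif4 at 0.823 and Mki67 at 0.890 were the lowest, with 1 inside both intervals. The 2 orders ran opposite ways across the 27 genes, with a Spearman rho of -0.623, as a description, since both come from the same division-gate cells. The replication list itself stood at 1321 CPM in late-rich and 2546 CPM in early-rich cells.

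Members were higher in cells with replication transcripts but no gate UMIs after thinning. There were 350 cells with at least 3 replication UMIs and 0 gate UMIs after thinning, called replicating here, and 5767 with 0 of both, called resting. These names stand for ranges of thinned counts and not for observed states. In unthinned counts, resting cells held 177.2 CPM of the replication list and replicating cells 2018 CPM. A list of 64 other genes of mitosis, 41 of them the gate genes, stood at 610.7 CPM in resting and 1327 CPM in replicating cells. Among all cells with 0 thinned gate UMIs, 71 had 10 or more thinned member UMIs. The part of dividing cells that the gate missed was not tested. Members summed to 2214 CPM (2128 to 2301) in replicating and 613 CPM (601 to 624) in resting cells. Of 40 members, 37 were at least 2-fold higher in replicating cells with an interval excluding 1, against 2.59% of all genes tested, and the median ratio was 6.95 against 0.992. The early list stood at 689 CPM (642 to 739) in replicating cells and the late list at 432 CPM (395 to 471), against 155.9 and 187.5 CPM in resting cells. In resting cells Pttg1 made up 135 CPM of the late list. Replicating cells carried fewer mesenchymal marker UMIs than resting cells, 521.2 against 912.0 CPM, and had a median doublet score of 0.0846 against 0.0699, and the part of these in the result was not tested. Aurkb had the highest ratio, 43.6 (18.7 to 113), from 0.438 CPM in resting cells. Ndc80 and Bub1 followed at 26.4 and 25.2. Among the 40, the 3 members not reaching the criterion were Cks2 at 1.94, Smc4 at 1.98 and Pttg1 at 0.896 (0.750 to 1.06).

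Cells were finally split by epithelial and mesenchymal markers, counted in thinned cells from 12 and 17 genes. The epithelial gate (at least 3 epithelial and at most 1 mesenchymal UMIs) held 10515 cells (79.2%), and the mesenchymal gate (at least 3 mesenchymal and at most 2 epithelial UMIs) 1476 (11.1%). Another 824 cells (6.20%) had at least 3 epithelial and at least 2 mesenchymal UMIs and form the mixed gate, and 466 (3.51%) were in none. The gates are ranges of counts, and 930 cells had 2 or 3 epithelial UMIs. Among cells with at least 3 epithelial UMIs, 2032 had 1 or 2 mesenchymal UMIs, on either side of the cut between the epithelial and mixed gates. Among cells with fewer epithelial UMIs, 273 had 2 or 3 mesenchymal UMIs. Mesenchymal-gate cells held 4540 CPM of the mesenchymal list and 545.4 CPM of the epithelial list, and epithelial-gate cells 129.9 and 6267 CPM. These are cells of 1 culture, and their origin was not tested.

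A smaller share of mesenchymal-gate cells was in the division gate. The share was 2.71% (40 of 1476, 1.94 to 3.67%) against 11.2% (1175 of 10515, 10.6 to 11.8%) of epithelial-gate cells, 6.31% (4.75 to 8.19%) of mixed cells and 11.4% (8.64 to 14.6%) of cells in none. Median UMIs were 3270 in mesenchymal-gate and 3089 in epithelial-gate cells. Without thinning, the marker gates changed too and covered all 14925 kept cells, so these shares are of other sets of cells. They were 4.19% of 1192 mesenchymal, 16.7% of 10968 epithelial and 13.7% of 2255 mixed cells. The mixed share was then nearer to the epithelial one. By members alone, cells with at least 10 thinned member UMIs made up 3.12% of mesenchymal-gate and 12.9% of epithelial-gate cells. The mesenchymal share was the lower one under all 9 other settings, by 3.36 to 5.50 times, although the shares themselves ran from 0.881 to 4.61% and from 4.84 to 15.5%.

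Over all cells of each gate, the members summed to 1270 CPM (1238 to 1301) in the mesenchymal and 2563 CPM (2546 to 2580) in the epithelial gate. Of 40 members, 34 were at least 2-fold lower in the mesenchymal gate with an interval excluding 1, against 11.7% of all genes tested, and 0 were higher, against 7.42%. The median ratio was 0.339 for these members and 0.954 for all genes. The 10 CPM minimum was taken over all kept cells, most of them epithelial, so a member could reach it through the epithelial gate. Aurkb, for example, had 15.1 CPM in the epithelial and 3.02 CPM in the mesenchymal gate. The part of this in the count was not tested. Kif11 stood at 4.23 against 35.8 CPM and Mki67 at 13.5 against 63.9 CPM. Cks1b and Pttg1 went the other way, with Cks1b at 176 against 163 CPM and Pttg1 at 206 against 125 CPM, short of 2-fold.

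Within the division gate, the marker gates were much closer. Cells of both were chosen by at least 3 UMIs of other mitotic genes, so the gate itself draws their member levels together. The share of all genes given below also counts genes of the marker lists. Members summed to 11738 CPM (11236 to 12256) in the 40 mesenchymal and 10755 CPM (10658 to 10852) in the 1175 epithelial cells. Of 40 members, 1 differed by at least 2-fold with an interval excluding 1, against 13.3% of all genes tested (6.88% higher and 6.46% lower in the mesenchymal set), and the median ratio of mesenchymal over epithelial was 1.13 for the members and 0.941 for all genes. That member was Kif11, the kinesin that pushes spindle poles apart. It had 68.5 CPM (12 UMIs, 35.4 to 119.7) in mesenchymal and 184 CPM in epithelial division-gate cells, a ratio of 0.372 (0.192 to 0.654). The 40 mesenchymal division-gate cells had a median doublet score of 0.0910, against 0.0248 in mesenchymal cells with 0 gate UMIs and 0.0545 in epithelial division-gate cells. When the 10% of cells with the highest scores were left out, the other cells were thinned anew and the gates redrawn. They then held 39 mesenchymal division-gate cells, which are not a subset of the 40, and Kif11 was again the member called. Kif11 was not called under the stricter cell filter or when cells were thinned to 2000 UMIs, and the number of members called ran from 0 to 5 over the settings. The 40 mesenchymal cells held 175160 UMIs, and a 2-fold difference was not detectable at this depth for low members such as Gtse1, at 2.52 (0.784 to 6.28).

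The late and early lists stood differently in these 2 sets. The late list had 3671 CPM (3393 to 3966) in mesenchymal and 2909 CPM (2859 to 2959) in epithelial division-gate cells, and its 12 members had ratios from 1.10 to 1.57 with a median of 1.26. The early list had 2506 CPM (2277 to 2752) and 2777 CPM (2728 to 2826), with ratios from 0.372 to 1.33 and a median of 0.931. The replication list moved with them, at 1410 CPM (1240 to 1597) in mesenchymal and 1970 CPM (1929 to 2012) in epithelial division-gate cells, and its part in the difference was not tested. Cks1b had 845 against 482 CPM, a ratio of 1.75 (1.47 to 2.07), Aurka 1.57 (0.972 to 2.42) and Cenpa 1.38 (1.13 to 1.66). Top2a and Mki67 were below 1, at 0.747 (0.606 to 0.912) and 0.674 (0.470 to 0.937), all short of 2-fold. Plk1, Cdc20, Ccnb1 and Cdk1 had ratios of 1.41 (0.884 to 2.15), 1.26 (0.821 to 1.85), 1.49 (1.00 to 2.14) and 1.07 (0.839 to 1.34).

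**Figure D4:**
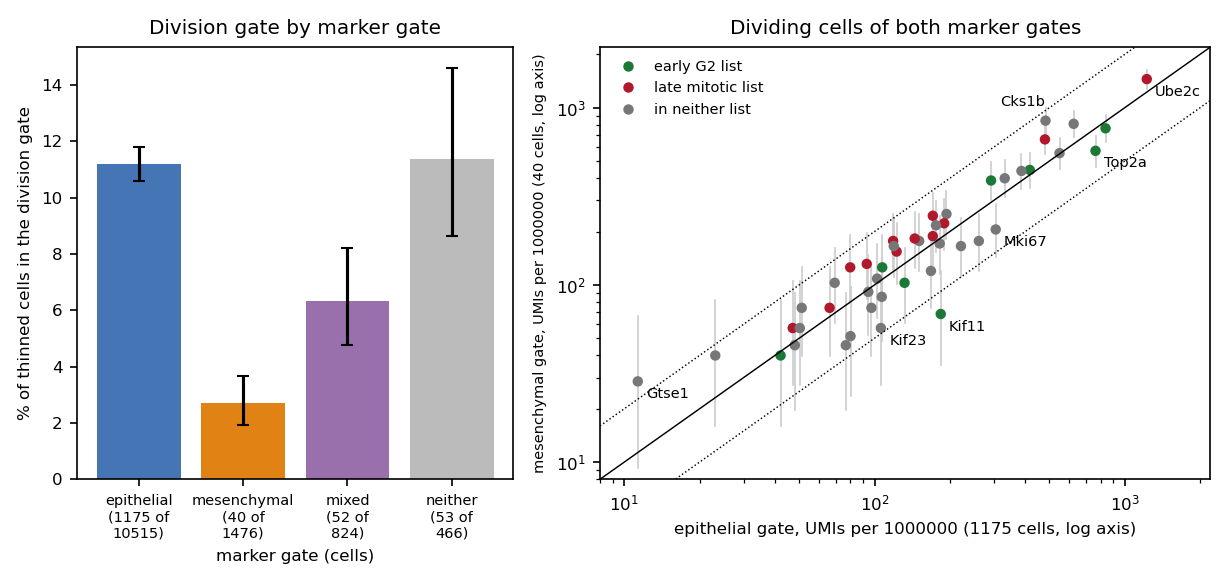
Left, percent of thinned cells in the division gate in each marker gate, with exact 95% binomial intervals (bars start at 0). Right, level of each member in division-gate cells of the mesenchymal gate against the epithelial gate in UMIs per 1000000 (log axes), with exact intervals for the mesenchymal side, a solid line of equal levels and dotted lines at 2-fold; Kif11, at 68.5 against 183.9 CPM, lies below the lower dotted line.

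Outside the division gate, in cells with 0 gate UMIs, members summed to 760.2 CPM (734 to 787) in mesenchymal and 731 CPM (721 to 742) in epithelial cells. Of 40 members, 14 were at least 2-fold lower in the mesenchymal cells, against 11% of all genes tested, and 0 were higher, against 7.54%. The 10 CPM minimum was taken over all kept cells, so members low in the cells compared here could reach it through the division gate. Ccna2, 1 of those called, had 0.476 CPM (2 UMIs) in mesenchymal and 2.04 CPM in epithelial cells. The part of this in the count was not tested. Birc5 stood at 3.57 against 18.4 CPM and Ube2c at 10.7 against 25.7 CPM. Pttg1 and Cks1b were again the other way, Pttg1 at 206 against 120.1 CPM and Cks1b at 139.8 against 78.6 CPM, while the sums over all members were close. Mixed division-gate cells had 10779 CPM (10315 to 11259) of members, with epithelial and mesenchymal lists of 5379 and 1186 CPM and a median doublet score of 0.0558, and doublets among them were not tested.

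Other genes of mitosis, 64 in a companion list, bear on how general the pattern is. Of these, 41 chose the gate, so their ratios follow from it, and the 3 highest, Kif18b at 228.1 (76.0 to 1123, with 3 UMIs in other cells), Kifc1 at 182.7 (82.3 to 504.8) and Aspm at 181.5 (106.9 to 335.0), are of that kind. Of the 23 others, 18 reached 10 CPM and 17 of these were at least 2-fold higher in division-gate cells, against 4.17% of all genes tested, with a median ratio of 4.54. The 3 lowest of the list were Zwint, a kinetochore protein, at 1.38 (1.24 to 1.54), Fzr1, the Cdh1 activator of the anaphase-promoting complex, at 2.03 (1.59 to 2.58) and the checkpoint protein Bub3 at 2.35 (2.22 to 2.48). By DNA replication level, 3 of these 18 had an interval below 1 and 4 above, against 5.99% and 8.34% of all genes tested. Between replicating and resting cells, 11 of the 18 were at least 2-fold higher and 1 lower, against 2.59% and 1.13%. Between the marker gates in division, 0 of the 18 differed by 2-fold, against 13.3%, in cells that were all chosen by mitotic transcripts.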

How the data were processed

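UMI counts were deposited by the authors as 1 matrix of raw, unnormalized counts, and per the file headers CellRanger 8.0.1 wrote it; the submitters' processing notes name Cell Ranger, Scanpy 1.8.2 and mm10. The labels describe 3 libraries (barcodes, gene expression, scar), and which of them supplied the reads is not given in the sources used here, so the matrix is 1 sample.

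Barcodes with at least 500 genes, 1000 UMIs and at most 20% mitochondrial UMIs were kept. Levels are CPM of summed counts with Poisson intervals, ratios have conditional binomial intervals and shares Clopper-Pearson intervals, all at 95%. Gates used cells thinned to 1500 UMIs (seed 1), with levels from unthinned counts; replication cuts were the 67th and 33rd percentiles in the division gate. A gene was called at a ratio of at least 2 either way with an interval excluding 1, among genes at 10 CPM or more over all kept cells. That minimum was the same in every comparison, so a gene could reach it through only 1 of the sets compared, or through cells outside both. Python 3.11.15, numpy 2.4.6, scipy 1.17.1 and scanpy 1.11.5 were used, and the calling was tested on simulated data.

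The members and lists were chosen with earlier results of these data known. All 47 members are accounted for by role. Given in full are the 5 highest and 5 lowest by level, by division ratio and by replication ratio, members called between marker gates, and Ccna2, Cdk1, Top2a, Ccnb1, Cdc20, Plk1, Aurka, Cenpa, Mki67, Cks1b and Cks2, with 3 companions from each end. Others named were chosen after their values were seen.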

Additional observations from a re-analysis of the deposited data

Results flagged for a closer look

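Barcodes that the filters removed, and that no comparison used, also held mitosis transcripts. The 3191 removed barcodes had 3465 UMIs of the 47 members among 2276754, or 1522 CPM (1472 to 1573), above the 1.32 CPM that a count of 0 allows and below the 2308 CPM of the kept cells. Their median was 696 UMIs and 12.1% mitochondrial UMIs.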

How the results depend on the processing

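The stricter cell filter changed 3 cutoffs together, and replication cuts, set by percentile, moved with several settings. Leaving out cells, by the stricter filter or by Scrublet score, also redrew the random thinning of the cells kept. Values under these 2 settings therefore include a change of draw, whose part was not tested. The summed level was 2424 CPM under a stricter cell filter (at least 1000 genes and 2000 UMIs, at most 10% mitochondrial UMIs), 2275 CPM without the 10% of cells with the highest Scrublet scores and 2375 CPM without the added sequences GFP and Scar. The count of members higher in the division gate stayed between 39 and 46, also when other cells could have up to 2 gate UMIs, an alternative chosen after seeing the data. The early list ratio was 0.953 under the stricter filter, 0.892 without the high Scrublet scores, 0.956 when thinned to 1000 UMIs and 1.09 with a gate of 2 UMIs. The late list ratio was 0.526, 0.460, 0.669 and 0.640 under these same settings, 0.480 when thinned to 2000 UMIs and 0.522 with another seed. The replication cuts, at least 3 and at most 1 UMIs in the report, were 4 and 2 under the stricter filter and without the high Scrublet scores, 5 and 2 when thinned to 2000 UMIs, 2 and 1 when thinned to 1000 and 4 and 1 with another seed. The division-gate share of epithelial and mesenchymal cells was 6.36% and 1.37% when thinned to 1000 UMIs, 15.5% and 4.61% with a gate of 2 UMIs and 4.84% and 0.881% with a gate of 5, and the epithelial share was 15.1% when thinned to 2000 UMIs. Members called between the marker gates in division numbered 0 under the stricter filter and when thinned to 2000 UMIs, 5 when thinned to 1000, 3 with a gate of 2 or of 5 UMIs or a fold of 1.5, 4 with marker gates at 5 UMIs and 2 by the mean over cells. Top2a by replication level reversed to 0.898 without the high Scrublet scores and 0.927 when thinned to 1000 UMIs, and the cause was not tested. Of 423 member ratios by replication level, 339 moved by less than their interval, 82 by more and 2 reversed, as did 276, 147 and 0 of 423 division ratios and 112, 29 and 0 of 141 levels. The Kif11 difference rests on 12 UMIs in 40 mesenchymal division-gate cells. No paired analysis was possible because there is 1 sample.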

Other observations

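Regulators of the mitosis genes and of Cdk1, named here after their values were seen, were also higher in division-gate cells. Of all genes at 10 CPM or more, 4.17% were at least 2-fold higher there with an interval excluding 1. Foxm1, Mybl2, Pkmyt1 and Cdc25b were under that minimum, at 4.93, 5.41, 2.95 and 9.44 CPM over all kept cells, and so outside that share. Foxm1, the transcription factor of the G2 and mitosis programme, had 24.7 CPM in the gate and 1.05 CPM in other cells, a ratio of 23.6 (15.97 to 35.8). Mybl2, which encodes B-Myb, had a ratio of 6.72 (4.92 to 9.18), and the MuvB subunits Lin54 and Lin9 ratios of 4.86 (4.03 to 5.86) and 4.003 (3.29 to 4.86). By DNA replication level within the gate, Mybl2 had a ratio of 1.87 (1.13 to 3.20), while the interval of Foxm1, 1.18 (0.775 to 1.80), held 1. Wee1 and Pkmyt1, kinases that hold Cdk1 inactive, had division ratios of 2.64 (2.30 to 3.03) and 10.03 (6.50 to 15.7), and Cdc25b, which reverses them, 6.69 (5.36 to 8.36).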
